A study of Mus musculus with 12 samples.

Results

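Cells taken from the muscle layers of mouse intestine and kept on a well plate in a medium labelled for differentiation (M medium) were compared with strips of intestinal muscle, the native tissue. The comparison took the 3 M plate libraries and the 3 strip libraries by their labels, 6 of the 12 RNA-seq libraries of the study. The other 6 came from cells in serum medium on plates and from cells in M medium on a gelatin scaffold.

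All groups were wild type. The M plate group was cultured for 28 days in Advanced DMEM/F-12 without serum, with N2, B27 lacking vitamin A, N-acetylcysteine, HEPES, GlutaMAX and antibiotics. That medium also held the BMP antagonist Noggin at 100 ng/ml, R-spondin1, which raises Wnt signalling, at 1 µg/ml, and the ROCK inhibitor Y27632 at 10 µM. The protocol names no sort of the cells, so the plates could hold every cell type of the muscle wall. The strip group was the positive control and was never cultured according to its medium label, although its other labels repeat the cell source and day of the cultures. The labels give 3 biologically independent replicates a group, but neither strain, sex and age nor whether replicates were separate animals. The edgeR p-values below set the difference between groups against the spread between samples within groups. That spread was estimated over all 12 libraries, so it is partly that of the other cultures.

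The muscle wall of the gut contracts through smooth muscle cells, whose myosin slides along actin when calcium and myosin light chain kinase switch it on. Enteric neurons between the muscle layers command that muscle, interstitial cells of Cajal pace it, and glia, fibroblasts, vessels, resident macrophages and an outer sheet of mesothelium surround it. Smooth muscle cells placed in culture are known to lower their contractile genes and to make more matrix, a shift that varies with medium and substrate.

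The data showed less smooth muscle, neuronal and pacemaker transcript in M plate cultures than in strips. There was more transcript of lymphatic endothelium, macrophages, matrix and inflammatory mediators, and of most genes listed for blood endothelium. Several of the latter are known in lymphatic endothelium too. Glial transcripts were mixed and mesothelial ones mostly did not pass the test. Since these are bulk samples, fewer cells of a type and less RNA per cell cannot be told apart.

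Libraries held 35684422 to 65356837 gene counts in M plate and 21396485 to 76361847 in strips. Log2 levels correlated at 0.988 to 0.991 across genes among M plate libraries, at 0.980 to 0.991 among strips and at 0.809 to 0.861 between the groups (genes are not independent replicates). The mitochondrial share was 1.21% to 1.26% in M plate and 2.22% to 3.76% in strips, and the share of reads outside annotated features was 5.74% to 6.44% in M plate and 6.82% to 7.87% in strips. Intestinal epithelium was nearly absent from M plate and uneven among strips. Its 21 listed genes summed to 0.000695% to 0.00077% of counts in M plate, against 0.0387%, 0.456% and 0.0562% in strips replicates 1 to 3. Red blood cell genes summed to 0.000113% to 0.000266% in M plate and to 0.0295%, 0.0135% and 0.00736% in strips. The part of these shares in the results below was not tested.

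Levels are given as CPM, counts scaled to library size and TMM factor, in replicate order, and are compared only within a gene. A gene is called when its Benjamini-Hochberg adjusted p from edgeR's quasi-likelihood test is under 0.05. Log2 fold changes are M plate over strips. The ± value beside them is an approximate SE, the absolute log2 fold change divided by the square root of the test's F statistic. It was derived in this way and not estimated by the fit. Of 17700 genes tested, 9712 (54.9%) were called, 4687 higher (26.5%) and 5025 lower (28.4%) in M plate. Counts of list members called are to be read beside these shares. By at least 2-fold, 2491 (14.1%) were higher and 3392 (19.2%) lower. Where a list is said to have no call in a direction, the count was 0 in edgeR, also at an unadjusted p under 0.05, and 0 in DESeq2 and limma-voom, unless other counts are given. The libraries of the groups did not overlap in 12948 genes (73.2%), so a gene without overlap is the common case here. The median log2 fold change of all genes tested was -0.0072. With upper quartile factors that median was -0.16 and the calls 3706 higher and 6067 lower, and with library size alone it was -0.23 with 3327 higher and 6492 lower. The share of calls that were higher was thus 48.3% in the main analysis, 37.9% with upper quartile factors and 33.9% with library size alone.

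**Figure D1:**
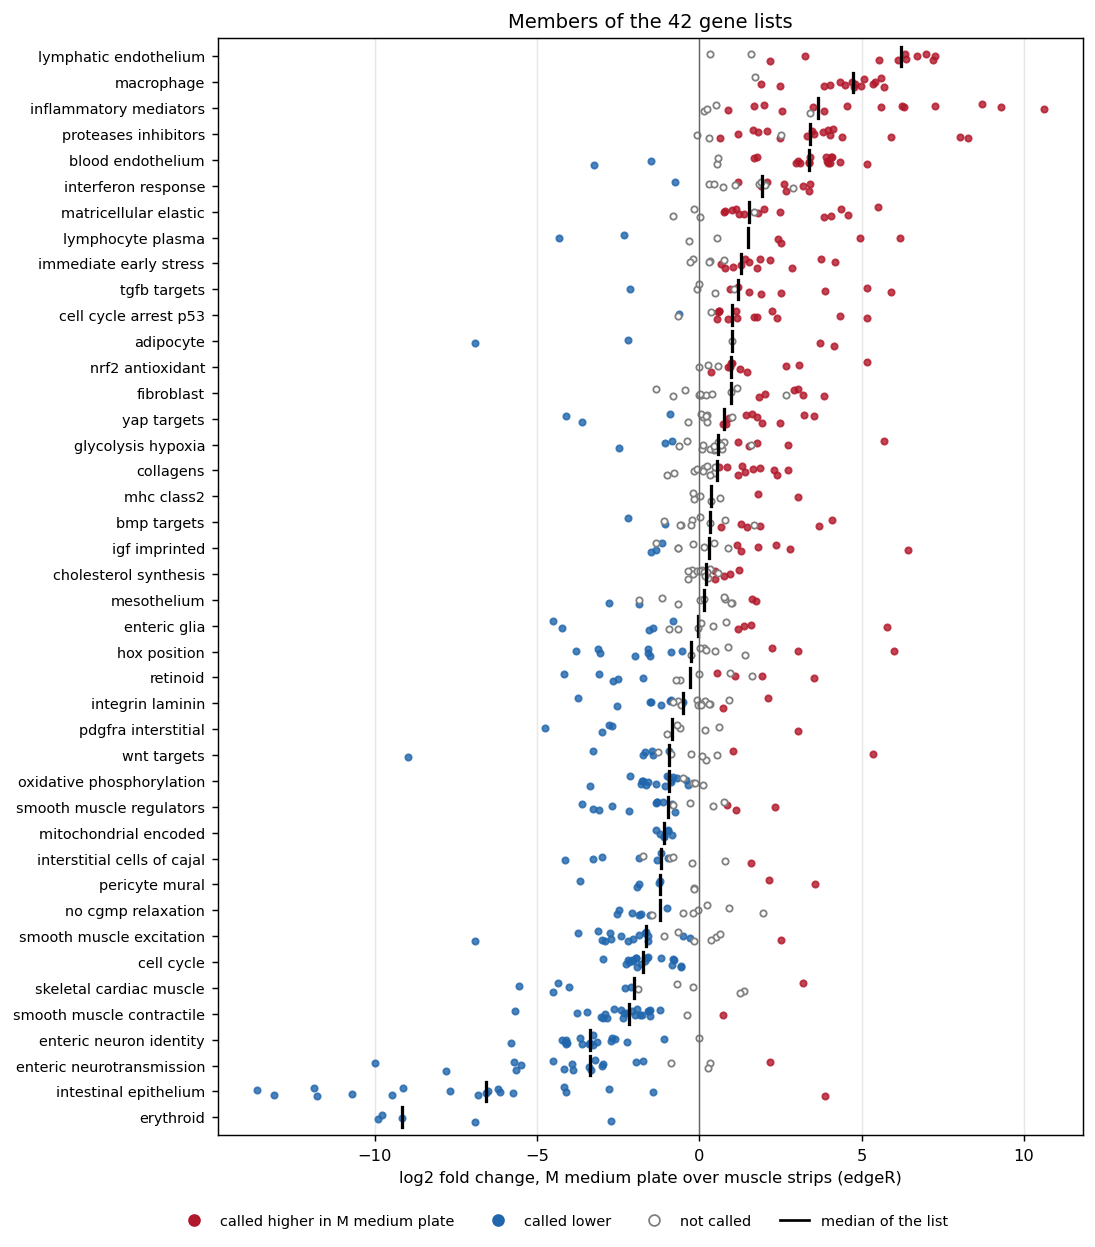
Log2 fold change (M medium plate over muscle strips, edgeR) of each tested member of 42 gene lists, with filled red points called higher, filled blue points called lower, open points not called and a black tick at each list's median. Genes without a count in M plate stand at their bound over a floor of 3 counts. Lymphatic endothelium has the highest median at 6.23, and enteric neuron, epithelial and erythroid lists lie lowest.

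Contractile genes of smooth muscle differed by the most percentage points of counts among the 42 lists, while others differed more as a ratio. Summed over 24 genes of actin, myosin and their partners, they made up 1.51%, 0.957% and 1.33% of counts in M plate replicates 1 to 3, against 8.06%, 8.05% and 8.03% in strips. The means were 1.27% ± 0.284 in M plate and 8.05% ± 0.0133 in strips (SD, n = 3 each), without overlap. An exact permutation test over libraries, 2-sided, gave p = 0.1, the smallest that 3 against 3 can give. Of the 24 genes 22 were called lower and 1 higher, with a median log2 fold change of -2.15, beside 28.4% and 26.5% of all genes.

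Promoter sequences are shown for 3 genes with a match to a binding motif of a factor that is known to drive their group. For smooth muscle genes this is the CArG box, bound by serum response factor (SRF), and for inflammatory genes the NF-kB site. Each is the 250 bases before the RefSeq start site in GRCm38.p6, written in the direction of transcription, with motif matches in capitals. Acta2 lies on the minus strand at chr19:34255374-34255623, Myl9 on the plus strand at chr2:156775214-156775463 and Cxcl1 on the plus strand at chr5:90890995-90891244.
Acta2: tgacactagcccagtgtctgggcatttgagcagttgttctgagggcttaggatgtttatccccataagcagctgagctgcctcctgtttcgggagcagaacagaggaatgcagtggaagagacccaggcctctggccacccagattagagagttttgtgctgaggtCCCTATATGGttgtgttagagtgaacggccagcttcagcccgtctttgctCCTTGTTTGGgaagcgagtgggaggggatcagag
Myl9: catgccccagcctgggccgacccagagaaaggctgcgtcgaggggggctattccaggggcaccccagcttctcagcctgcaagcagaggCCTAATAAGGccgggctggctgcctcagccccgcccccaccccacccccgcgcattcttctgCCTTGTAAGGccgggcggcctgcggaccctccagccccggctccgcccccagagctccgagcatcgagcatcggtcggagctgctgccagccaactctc
Cxcl1: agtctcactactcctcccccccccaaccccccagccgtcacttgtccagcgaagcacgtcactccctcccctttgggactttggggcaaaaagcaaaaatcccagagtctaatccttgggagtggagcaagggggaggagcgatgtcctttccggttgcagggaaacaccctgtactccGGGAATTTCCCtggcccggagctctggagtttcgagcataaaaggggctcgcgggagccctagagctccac

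Both strands were searched. The Acta2 window held 2 CArG boxes with 1 core base other than A or T, at positions -84 and -34 from the start site. The Myl9 window held a strict CArG box at -161 and one with 1 departure at -99. A strict box was found in 1.62% of 27025 genes with a promoter sequence and in 3 of 20 contractile genes with one (15%). A gene was counted if any window of this length listed for it matched. With at most 1 departure the shares were 9.78% of all these genes and 6 of 20 contractile genes (30%). In Cxcl1 a pair of overlapping NF-kB matches began at -71 and -70. That motif was found in 8.23% of all these genes and in 4 of 15 inflammatory genes with a sequence (26.7%). The contractile genes held it at a like share, 5 of 20 (25%). These matches describe letters in a window and are no evidence of binding.

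Myh11, the smooth muscle myosin heavy chain (ENSMUSG00000018830, GRCm38 chromosome 16, 14194535 to 14291372, minus strand), had 1401, 696 and 1139 CPM in M plate, against 11160, 12965 and 11500 CPM in strips. Its log2 fold change was -3.46 ± 0.52 (edgeR adjusted p = 0.00032). It was the most abundant gene of every strip library, at 1.29% to 1.45% of counts. Acta2, the vascular and visceral smooth muscle actin (ENSMUSG00000035783, chromosome 19, 34241090 to 34255590, minus strand), had 1486, 920 and 1556 CPM in M plate, against 9621, 9534 and 9502 CPM in strips. Its log2 fold change was -2.85 ± 0.39 (edgeR adjusted p = 0.00019). Actg2, the enteric smooth muscle actin, had 685, 322 and 551 CPM in M plate, against 7049, 6741 and 7386 CPM in strips (-3.77 ± 0.74). In all 3 genes M plate replicate 2 was the lowest library and the strips lay close together. The actin genes are near-identical in their coding parts, so how reads were split between them is uncertain.

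Regulators and stabilisers of the filament went the same way. The myosin light chain Myl9 had 804, 400 and 682 CPM in M plate, against 4738, 4621 and 4653 CPM in strips (-2.89 ± 0.36). Its kinase Mylk had 1182, 825 and 1110 CPM in M plate, against 5905, 6789 and 6459 CPM in strips (-2.62 ± 0.30). The tropomyosin Tpm2, which lies along the actin filament, fell by 3.04 on the log2 scale, and calponin (Cnn1), the desmin gene (Des) and transgelin (Tagln) fell by 2.40, 2.34 and 2.22. The filamin Flna, an actin crosslinker of many cell types, stood at 2569, 1787 and 2185 CPM in M plate, against 6070, 6508 and 6527 CPM in strips (-1.55 ± 0.30). Pcp4, a small calmodulin-binding protein, was the list's lowest, with 3.41, 1.09 and 2.3 CPM in M plate, against 121, 109 and 118 CPM in strips (-5.68 ± 0.56). Caldesmon (Cald1) was the only one of the 24 not called, at 1294, 1161 and 1312 CPM in M plate and 1566, 1714 and 1664 CPM in strips (-0.39 ± 0.21, edgeR adjusted p = 0.13). The integrin Itga8 was called higher (0.74 ± 0.26, edgeR adjusted p = 0.034), but was not called without M plate replicate 1 or 2 or without any 1 of the strips, with an adjusted p of up to 0.105.

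**Figure D2:**
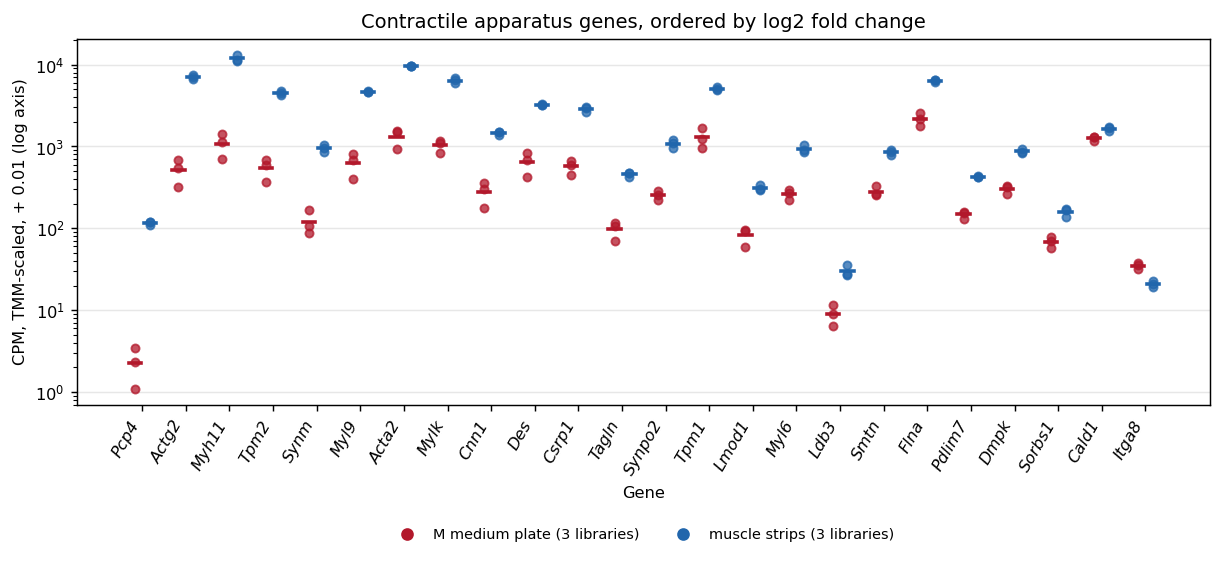
CPM (TMM-scaled, log axis, 0.01 added) of the 24 contractile genes in 3 M medium plate libraries (red) and 3 muscle strip libraries (blue), with a bar at each group mean and genes ordered by log2 fold change. The groups do not overlap in any of the 24 genes, and Pcp4 lies farthest apart.

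Genes that excite the muscle were lower as well, though less uniformly. Of 24 channels, pumps and receptors 17 were called lower and 1 higher, with a median of -1.66, and their sum was 0.108% to 0.131% of counts in M plate and 0.323% to 0.384% in strips. Phospholamban (Pln), which restrains the calcium pump of the sarcoplasmic reticulum, had 4.84, 8.17 and 5.06 CPM in M plate, against 44.5, 54.9 and 43.5 CPM in strips (-2.98 ± 0.44). Cacna1c, the pore of the L-type calcium channel, had 59.6, 38.3 and 52.2 CPM in M plate, against 141, 151 and 153 CPM in strips (-1.57 ± 0.22). Kcnma1, the large-conductance potassium channel, had 20.8, 16.1 and 17.1 CPM in M plate, against 106, 126 and 120 CPM in strips (-2.71 ± 0.25). None of these overlapped between groups.

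Among receptors, the tachykinin receptor Tacr2 showed the largest gap, with 0.373, 0.102 and 0.488 CPM in M plate, against 24.2, 69 and 27.7 CPM in strips. The log2 fold change was -6.91 ± 0.67, and -6.32 without strips replicate 2. The muscarinic receptor Chrm3 did not pass, with 13, 13 and 13.1 CPM in M plate and 9.34, 12.5 and 9.05 CPM in strips (0.35 ± 0.35, edgeR adjusted p = 0.42). The other muscarinic receptor, Chrm2, was called lower (-1.58 ± 0.50, edgeR adjusted p = 0.02) but not without M plate replicate 2 or 3 (adjusted p of up to 0.0726). The ATP-gated channel P2rx1 was the only member called higher, with 12.8, 1.45 and 8.33 CPM in M plate, against 1.26, 1.42 and 1.29 CPM in strips (2.51 ± 0.62). M plate replicate 2 stood at the level of the strips, and the value was 1.88 without replicate 1.

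The nitric oxide and cyclic GMP pathway, which relaxes the muscle, gave 7 of 14 genes lower and none higher (median -1.22). The regulatory myosin phosphatase subunit Ppp1r12b fell by 2.48 on the log2 scale, with 258, 175 and 191 CPM in M plate, against 980, 1300 and 1208 CPM in strips. The phosphodiesterases Pde5a and Pde3a fell by 2.53 and 2.08. Prkg1, the cyclic GMP-dependent kinase, overlapped between the groups and did not pass (0.23 ± 0.22, edgeR adjusted p = 0.4). The count of members higher was 0 in edgeR and 1 each at an unadjusted p under 0.05, in DESeq2 and in limma-voom.

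Transcription factors of smooth muscle were split. Of 18 listed, 11 were called lower and 3 higher (median -0.97). Myocardin (Myocd), the SRF partner that switches on contractile genes, had 12.2, 5.43 and 9.31 CPM in M plate, against 79.3, 93.1 and 86.2 CPM in strips (-3.27 ± 0.67, edgeR adjusted p = 0.0022). SRF itself had 112, 79.4 and 110 CPM in M plate, against 227, 251 and 273 CPM in strips (-1.32 ± 0.21). Foxf2 and Hand1, factors of the gut wall mesenchyme, fell by 3.62 and 3.10. The actin-sensing SRF partner Mrtfa moved the other way, with 94.8, 110 and 107 CPM in M plate, against 47.7, 46.6 and 48.8 CPM in strips (1.12 ± 0.16). Gata6, a zinc finger factor, had 186, 216 and 212 CPM in M plate, against 42, 40 and 40.3 CPM in strips (2.33 ± 0.50).

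Interstitial cells of Cajal, which depend on the receptor Kit, were represented by 13 genes, of which 7 were lower and 1 higher in M plate (median -1.18). Their sum was 0.076% to 0.0911% of counts in M plate and 0.143% to 0.176% in strips. Kit had 15.7, 14.2 and 10.6 CPM in M plate, against 108, 142 and 140 CPM in strips (-3.27 ± 0.55, edgeR adjusted p = 0.00066). The chloride channel Ano1, which carries their pacemaker current, had 32.4, 32.1 and 29.7 CPM in M plate, against 217, 272 and 263 CPM in strips (edgeR adjusted p = 7.2e-06). Every M plate library lay below every strip library in both genes, and each still held counts of them. Their factor Etv1 was called lower (-1.86 ± 0.70, edgeR adjusted p = 0.042), but not when any 1 of the 6 libraries was left out (adjusted p of 0.0601 to 0.12). The T-type calcium channel Cacna1g was higher, with 116, 76.3 and 67.9 CPM in M plate, against 27.5, 25.4 and 33.7 CPM in strips (1.59 ± 0.22).

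Enteric neuron genes were lower almost throughout. Of 19 tested genes of neuronal identity 18 were called lower and none higher, with a median of -3.36, and 1 further gene was too low to test. Their sum was 0.0446%, 0.0331% and 0.0405% of counts in M plate, against 0.259%, 0.228% and 0.316% in strips. The RNA-binding protein Elavl4 (HuD) had 12.8, 5.51 and 7.99 CPM in M plate, against 91.5, 98.9 and 131 CPM in strips (-3.62 ± 0.36, edgeR adjusted p = 3.2e-05). Ret, the receptor that guides enteric neuron precursors, had 23.6, 10.9 and 13.2 CPM in M plate, against 130, 156 and 201 CPM in strips (-3.36 ± 0.38). The neuronal tubulin Tubb3 fell by 2.23. The groups did not overlap in any of these 3 genes. The growth cone protein Gap43 was the 1 tested gene not called, with 114, 116 and 126 CPM in M plate and 120, 98.2 and 142 CPM in strips (-0.02 ± 0.26, edgeR adjusted p = 0.96).

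Transmitter genes followed, with 16 of 20 lower and 1 higher (median -3.37). With DESeq2 14 were lower. The calls of Vip, Penk and Cck were each lost in most fits without a single library (edgeR adjusted p up to 0.108). Nos1, which makes the inhibitory transmitter nitric oxide, had 90.7, 38.4 and 71.1 CPM in M plate, against 166, 226 and 278 CPM in strips (-1.74 ± 0.42, edgeR adjusted p = 0.005). Chat, which makes acetylcholine, had 0.774, 0.457 and 0.566 CPM in M plate, against 5.34, 5.71 and 7.22 CPM in strips (-3.35 ± 0.37). Tac1, the substance P precursor, had 2.03, 1.24 and 1.04 CPM in M plate, against 89.6, 43.8 and 80.1 CPM in strips (-5.64 ± 0.45). The smallest of these gaps was thus that of Nos1. Grp, the gastrin-releasing peptide, fell by 7.79. Neuromedin U (Nmu) had no count in M plate and 21.9, 16.1 and 23.8 CPM in strips, so it was at least 1014-fold lower over a floor of 3 counts in the group. Another annotated gene overlaps it. The calcitonin gene Calca was the member called higher, with 13.5, 15.8 and 32.7 CPM in M plate, against 4.41, 3.29 and 5.89 CPM in strips (2.18 ± 0.60).

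Glial genes did not move in 1 direction. Of 15 listed, 4 were higher, 5 lower and 6 not called, shares near the 26.5% higher and 28.4% lower of all genes. Their median was -0.04, with a sum of 0.0646% to 0.0755% in M plate and 0.0733% to 0.0957% in strips. Of the defining markers, Sox10 stood at 34.3, 32.1 and 49.3 CPM in M plate and 60.8, 73.6 and 85.6 CPM in strips (-0.93 ± 0.38, edgeR adjusted p = 0.061). It was not called, although its groups did not overlap. S100b was called lower (-1.42 ± 0.37), and Gfap overlapped between groups. Its log2 fold change was 0.06 ± 0.44, with the sign turned by upper quartile factors or library size alone. Within the list Gfra3, a receptor of the GDNF family, had 9.6, 8.48 and 8.04 CPM in M plate, against 0.137, 0.167 and 0.162 CPM in strips (5.78 ± 0.34). Fabp7, a fatty acid binding protein of glia, had 1.46, 1.65 and 1.54 CPM in M plate, against 42, 31 and 33.5 CPM in strips (-4.52 ± 0.57).

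Lymphatic endothelium gave the highest median of the 42 lists, 6.23, with 10 of 12 genes higher and none lower. Its sum was 0.55%, 0.581% and 0.465% of counts in M plate, against 0.0213%, 0.0204% and 0.0213% in strips, a ratio of 25.3 between the means. Lyve1, a hyaluronan receptor of lymphatic vessels and of some macrophages (ENSMUSG00000030787, chromosome 7, 110850607 to 110863239, minus strand), had 1710, 2175 and 1629 CPM in M plate, against 13, 10.1 and 13.1 CPM in strips. It was 152-fold higher, a log2 fold change of 7.25 ± 0.96 (edgeR adjusted p = 0.00016). Prox1, the factor that sets lymphatic identity (ENSMUSG00000010175, chromosome 1, 190118035 to 190170714, minus strand), had 247, 225 and 205 CPM in M plate, against 3.07, 4.09 and 7.2 CPM in strips (5.54 ± 0.73). Flt4, the receptor of the lymphatic growth factor VEGF-C, had 972, 1126 and 779 CPM in M plate, against 8.46, 11.4 and 15.6 CPM in strips (6.34 ± 0.97). Every M plate library lay far above every strip library in these genes. Prox1 shares its locus with an overlapping transcript, and no strand setting was available to separate their reads. The lymphatic chemokine Ccl21a rose by 7.21 and Mmrn1, a multimerin of lymphatic vessels, by 6.97.

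The blood endothelium list was also higher, in 16 of 20 genes, with 2 lower, 2 not called and a median of 3.37. The list summed to 0.3% to 0.333% of counts in M plate and 0.028% to 0.0501% in strips. Several of its genes are known in lymphatic endothelium too, so the list does not set the 2 vessel types apart. Emcn and Sox17 were not called (0.55, edgeR adjusted p = 0.32, and 0.59, edgeR adjusted p = 0.42). Pecam1, an adhesion molecule of all endothelium, had 309, 351 and 314 CPM in M plate, against 23.3, 25.4 and 45.5 CPM in strips (3.37 ± 0.67, edgeR adjusted p = 0.0019). The junctional cadherin Cdh5 had 429, 525 and 421 CPM in M plate, against 21.1, 26.5 and 44.8 CPM in strips (3.89 ± 0.58). Eng, a TGF-beta co-receptor, and the orphan receptor Tie1 rose by 4.04 and 4.35. Of the pair called lower, von Willebrand factor (Vwf), a clotting protein of blood vessels, had 1.4, 1.17 and 2.77 CPM in M plate, against 11.4, 5.67 and 33.3 CPM in strips. The log2 fold change was -3.23 ± 0.76, and -2.28 without strips replicate 3. Esam, an adhesion molecule of endothelium and platelets, was called lower (-1.50 ± 0.50), but not when any 1 library other than strips replicate 2 was left out (adjusted p of up to 0.0775).

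Pericyte and mural genes were split, with 2 higher and 5 lower of 9 tested (median -1.20). Rgs5, a regulator of G protein signalling in pericytes, had 136, 64.9 and 97.1 CPM in M plate, against 1256, 1393 and 1169 CPM in strips (-3.68 ± 0.48). Pdgfrb, the PDGF receptor of pericytes and fibroblasts, had 210, 230 and 324 CPM in M plate, against 18.8, 19.9 and 26 CPM in strips (3.56 ± 0.23). These 2 genes moved in opposite directions with no overlap in either.

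Macrophage genes were higher in 15 of 16 cases and lower in none, with a median of 4.75. Their sum was 0.465%, 0.515% and 0.537% of counts in M plate, against 0.0311%, 0.0211% and 0.0238% in strips. Adgre1 (F4/80), a surface receptor of macrophages, had 266, 729 and 410 CPM in M plate, against 10.1, 7.76 and 9.3 CPM in strips (5.69 ± 0.84, edgeR adjusted p = 0.00031). The lysosomal glycoprotein Cd68 had 233, 209 and 317 CPM in M plate, against 5.72, 4.55 and 5.4 CPM in strips (5.59 ± 0.73). The complement subunit C1qa had 354, 365 and 358 CPM in M plate, against 17.5, 9.55 and 13.8 CPM in strips (4.72 ± 0.76). The mannose receptor Mrc1 and the lysozyme Lyz2 rose by 5.42 and 5.36. Csf1r, the receptor that macrophages need to survive, was called higher by less (1.91 ± 0.62, edgeR adjusted p = 0.024), and not without M plate replicate 1 or any 1 of the strips (adjusted p of up to 0.073).

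Lymphocyte and plasma cell genes were low in both groups and summed to 0.0091%, 0.00655% and 0.00508% of counts in M plate, against 0.000789%, 0.000533% and 0.000499% in strips. Of 14 listed genes 6 were too low to test, Cd3e with 1 count over the M plate group and 2 over the strips. Among the 8 tested, 4 were higher and 2 lower. Cd4, the helper T cell co-receptor that gut macrophages of the mouse can also carry, had 79.7, 51.6 and 36.1 CPM in M plate, against 1.12, 0.5 and 0.649 CPM in strips (6.19 ± 1.00). Cd4 alone made up most of the list's sum in every M plate library. Trac, the constant part of the T cell receptor alpha chain, had 9.69, 13.2 and 12.1 CPM in M plate, against 2.71, 2.13 and 1.32 CPM in strips (2.52 ± 0.58, edgeR adjusted p = 0.0042). The others higher were the transcription factor Gata3 (2.42 ± 0.58) and the interleukin 7 receptor Il7r (4.95 ± 0.87), whose value was 4.10 without M plate replicate 3 and 4.20 without strips replicate 3. The lower genes belong to B and plasma cells. The B cell receptor partner Cd79a had 0.0573, 0.102 and 0.173 CPM in M plate, against 0.52, 0.667 and 0.603 CPM in strips (-2.32 ± 0.47), and Mzb1 had 3 counts over the M plate group and 67 over the strips. Of 7 genes of MHC class II presentation 2 were called higher and 5 not called, a share near the 26.5% of all genes. H2-DMb1, which helps to load peptides, had 17.9, 17.7 and 19.4 CPM in M plate, against 2.66, 1.38 and 2.56 CPM in strips (3.04 ± 0.23). The invariant chain Cd74 had 38.8, 77.9 and 39.1 CPM in M plate, against 19.9, 4.92 and 19.7 CPM in strips, and its call was lost without M plate replicate 2 (edgeR adjusted p = 0.0903) or strips replicate 2 (edgeR adjusted p = 0.0528), which left 1 gene higher.

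Of 10 fat cell genes 5 could be tested, with 2 higher, 2 lower and 1 not called. The list summed to 0.037%, 0.0459% and 0.0505% of counts in M plate, against 0.0108%, 0.012% and 0.0119% in strips. Lipoprotein lipase (Lpl), which other cells make too, had 330, 407 and 461 CPM in M plate, against 29.5, 14.2 and 23.1 CPM in strips (4.16 ± 0.47). Lpl alone made up most of the list's sum in every M plate library. Pparg, a transcription factor of fat cells and some macrophages, had 12.2, 9.34 and 8.52 CPM in M plate, against 0.493, 1.04 and 0.789 CPM in strips (3.71 ± 0.42). The lipid droplet genes went the other way. Plin4 fell by 2.20, and Cidec had 0.0287, 0.0508 and 0.0629 CPM in M plate, against 1.64, 16.1 and 1.54 CPM in strips, with a log2 fold change of -6.92 that was -4.95 without strips replicate 2. Adiponectin and perilipin 1, defining markers of fat cells, were at or near 0 in both groups, at no more than 0.0944 CPM in any of these libraries.

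**Figure D3:**
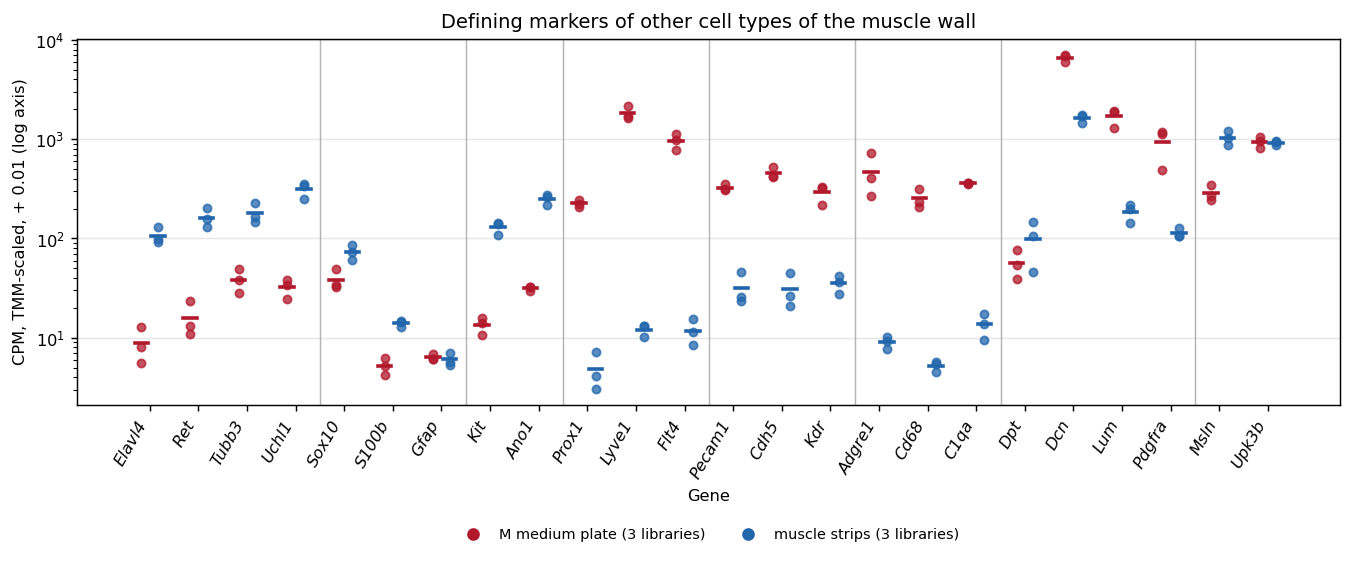
CPM (TMM-scaled, log axis, 0.01 added) of defining markers in 3 M medium plate libraries (red) and 3 muscle strip libraries (blue), with bars at the means and grey lines between neurons, glia, interstitial cells of Cajal, lymphatic endothelium, blood endothelium, macrophages, fibroblasts and mesothelium, from left to right. Neuronal and Cajal cell markers lie lower in M plate, lymphatic, endothelial and macrophage markers lie higher, and Gfap, Dpt and Upk3b overlap.

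Mesothelium, the sheet that covers the gut, gave 2 genes higher, 2 lower and 9 not called of 13. Its median was 0.14, and turned to -0.02 with upper quartile factors and -0.09 with library size alone. Its sum was 0.326% to 0.443% in M plate and 0.394% to 0.473% in strips, with overlap. Upk3b, a uroplakin of mesothelium, had 1045, 952 and 807 CPM in M plate and 970, 927 and 874 CPM in strips (edgeR adjusted p = 0.98). The mesothelin gene Msln did not pass either, at 345, 271 and 245 CPM in M plate and 1025, 1212 and 866 CPM in strips (-1.85 ± 0.76, edgeR adjusted p = 0.06), although its groups did not overlap. The keratin Krt19 was lower, at 49.5, 37.3 and 30.9 CPM in M plate, against 328, 259 and 229 CPM in strips (-2.79 ± 0.29), and it is also an epithelial keratin. The mucin Muc16 was the other lower gene (-1.86 ± 0.58), a call lost without M plate replicate 3 (edgeR adjusted p = 0.068), which left 1 lower. Efemp1, a matrix protein, was higher, at 1000, 693 and 495 CPM in M plate, against 256, 246 and 210 CPM in strips (1.62 ± 0.44). Bnc1, a transcription factor, was called too, at 246, 331 and 237 CPM in M plate, against 81.7, 85 and 76.8 CPM in strips (1.74 ± 0.59). That call was lost without M plate replicate 2 or any 1 of the strips (edgeR adjusted p up to 0.0815), which left 1 higher.

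Fibroblast genes summed to 1.65% to 1.76% of counts in M plate and 0.457% to 0.557% in strips. A large part of the M plate sum was fibronectin (Fn1), a member of this list that is given below with the matrix genes. Of 17, 6 were higher, none lower and 11 not called (median 0.96), with 1 lower at an unadjusted p under 0.05, 1 in DESeq2 and 0 in limma-voom. Pdgfra, the PDGF receptor of gut fibroblasts, had 486, 1171 and 1131 CPM in M plate, against 106, 105 and 127 CPM in strips (3.04 ± 0.49). It also belongs to a list of 10 genes of Pdgfra-positive interstitial cells, where it was the 1 gene called higher. In that list 4 genes were lower, Bmp5, Dpp6, P2ry1 and Adamdec1 (median -0.83), beside 26.5% higher and 28.4% lower of all genes. The call of Adamdec1 was lost without M plate replicate 1 or 2 or strips replicate 1. Lumican (Lum), which orders collagen fibrils, had 1291, 1872 and 1924 CPM in M plate, against 219, 144 and 196 CPM in strips (3.19 ± 0.52). Decorin (Dcn), another collagen-binding proteoglycan, rose by 2.01 ± 0.30. The dermatopontin gene Dpt overlapped between groups, with 77.1, 54.6 and 38.7 CPM in M plate and 147, 46.1 and 107 CPM in strips (-0.82 ± 0.43, edgeR adjusted p = 0.13). Without strips replicate 2 it was called lower (log2 fold change -1.18, edgeR adjusted p = 0.0276).

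Matrix genes were mostly higher. Of 18 matricellular and elastic fibre genes 14 were higher and none lower (median 1.53), with sums of 2.99% to 3.39% in M plate and 0.873% to 1.02% in strips. Fibronectin (Fn1), a main adhesive protein of the matrix, had 5734, 5804 and 6844 CPM in M plate, against 442, 379 and 464 CPM in strips (3.84 ± 0.46). Biglycan (Bgn), a small matrix proteoglycan, had 4517, 4680 and 5179 CPM in M plate, against 223, 222 and 253 CPM in strips (4.37 ± 0.34). Lysyl oxidase (Lox), which crosslinks collagen and elastin, had 1634, 1692 and 1531 CPM in M plate, against 97.4, 87.4 and 107 CPM in strips (4.06 ± 0.21). In each the libraries of a group lay close together. Collagens moved less, with 10 of 20 higher and none lower in edgeR (median 0.55), where 1 was lower at an unadjusted p under 0.05, in DESeq2 and in limma-voom. The type VIII collagen Col8a1, found in vessel walls, rose by 2.32 ± 0.21.

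Matrix proteases and their inhibitors gave 17 of 20 higher and none lower (median 3.40). Stromelysin Mmp3 had 23.9, 48.5 and 64.5 CPM in M plate, against 0.137, 0.0417 and 0.186 CPM in strips (8.29 ± 0.93). Mmp12, the macrophage elastase, rose by 8.04. Of 22 integrin, laminin and dystrophin complex genes 9 were lower and 2 higher (median -0.51), and without any 1 library other than M plate replicate 3 the call of the integrin Itga8 was lost, which left 1 higher. The integrins Itgb3 and Itgb5 went opposite ways, Itgb3 at -3.72 ± 0.41 and Itgb5 at 2.11 ± 0.14.

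Inflammatory mediators rose widely. Of 18 listed genes 14 were higher and none lower (median 3.66), with sums of 2.74%, 4.2% and 3.2% in M plate, against 0.649%, 0.767% and 0.718% in strips. Saa3, an acute phase protein made by macrophages and stromal cells (ENSMUSG00000040026, chromosome 7, 46711998 to 46715700, minus strand), had 6233, 12841 and 10070 CPM in M plate, against 6.38, 6.71 and 5.6 CPM in strips. Its log2 fold change was 10.61 ± 0.74 (edgeR adjusted p = 6.4e-06). Complement C3 had 21232, 29731 and 22051 CPM in M plate, against 5476, 6712 and 6231 CPM in strips (1.99 ± 0.49). C3 was the most abundant gene of every M plate library, at 2.08% to 2.87% of counts, and most of the list's sum. Replicate 2 was the highest M plate library for both. The neutrophil chemokine Cxcl1, whose promoter is printed above, had 16.1, 24.9 and 22.8 CPM in M plate, against 0.192, 0.167 and 0.0928 CPM in strips (7.26 ± 1.29). Cxcl5, a related chemokine, rose by 9.29 and Lcn2, an iron-scavenging acute phase protein, by 8.72. Macrophage genes, given above, were higher in the same libraries, and their part in these rises was not tested.

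Interferon response genes were higher in 9 of 18 cases and lower in 1 (median 1.94). That 1 was Gbp2 (-0.74 ± 0.25), a call lost without any 1 library other than M plate replicate 2. The list summed highest in M plate replicate 2, at 0.0653%, 0.101% and 0.0514% in M plate, against 0.0364%, 0.0393% and 0.036% in strips. With DESeq2 14 were higher. Bst2, the antiviral tetherin, had 107, 148 and 116 CPM in M plate, against 14.1, 11.3 and 15 CPM in strips (3.19 ± 0.38). Immediate early and stress genes gave 12 of 17 tested higher and none lower (median 1.29). Without M plate replicate 3 that count was 6, and without strips replicate 1 or 3 it was 7. Junb, an AP-1 subunit, had 107, 120 and 158 CPM in M plate, against 8.76, 11.3 and 8.52 CPM in strips (3.75 ± 0.26). Fos, its partner, had 18.7, 36.7 and 143 CPM in M plate and 12.6, 19.5 and 11.6 CPM in strips, with overlap, and its call (2.19 ± 0.75) was lost without any 1 of the strips and without M plate replicate 3, where the value was 0.94.

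Proliferation genes were lower in M plate in all 20 cases listed (median -1.74), and no library of either group overlapped in any of them. The list summed to 0.0426%, 0.0413% and 0.0406% of counts in M plate, against 0.142%, 0.149% and 0.139% in strips. Mki67, a marker of cycling cells, had 62.6, 56.8 and 50 CPM in M plate, against 204, 276 and 223 CPM in strips (-2.05 ± 0.34, edgeR adjusted p = 0.00058). The ribonucleotide reductase subunit Rrm2 had 8.83, 6.95 and 8.02 CPM in M plate, against 63.4, 66.3 and 55.7 CPM in strips (-2.96 ± 0.46). Cyclin A2 (Ccna2) fell by 2.26. Epithelium, a cycling tissue, was nearly absent from M plate and present in strips, and its part in these falls was not tested. Strips replicate 2, the library richest in epithelium, held 0.149% of proliferation counts, against 0.142% and 0.139% in the other strips. Genes of p53 response and cell cycle arrest gave 13 higher and 1 lower of 16 (median 1.02). The cell cycle inhibitor Cdkn2a (p16 and p19Arf) had 8.51, 11.3 and 14.5 CPM in M plate, against 0.548, 0.542 and 0.603 CPM in strips (4.33 ± 0.47). Cdkn1a, the p53 target p21, had 115, 125 and 117 CPM in M plate, against 20.8, 28.4 and 25.9 CPM in strips (2.25 ± 0.44). Cdkn1b was the gene called lower (-0.64 ± 0.12).

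Mitochondrial energy genes were lower. Of 21 nuclear genes of oxidative phosphorylation 17 fell and none rose (median -0.92). Ndufb9, a subunit of complex I, had 64.5, 62.9 and 65.2 CPM in M plate, against 261, 205 and 189 CPM in strips (-1.77 ± 0.15). Ppargc1a, the coactivator of mitochondrial genes, had 5.33, 6.19 and 6.51 CPM in M plate, against 16.7, 22.2 and 23.4 CPM in strips (-1.79 ± 0.44). All 7 tested genes of the mitochondrial genome were lower (median -1.07). Cytochrome b (mt-Cytb) had 2269, 2106 and 2459 CPM in M plate, against 7318, 5947 and 4112 CPM in strips (-1.35 ± 0.24), with strips replicate 3 nearest to the cultures. Glycolysis and hypoxia genes gave 5 higher and 3 lower of 23, beside 26.5% and 28.4% of all genes. Leaving out any 1 library left 2 or 3 higher. Adrenomedullin (Adm), a vasodilator peptide that hypoxia raises, had 137, 249 and 249 CPM in M plate, against 4.57, 3.29 and 4.42 CPM in strips (5.68 ± 0.74). Cholesterol synthesis gave 5 of 20 higher, near the 26.5% of all genes, and none lower (median 0.22), with 1 lower at an unadjusted p under 0.05, 1 in DESeq2 and 0 in limma-voom. It gave 3 higher without M plate replicate 1 or strips replicate 1 or 2, and 1 lower without strips replicate 2.

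Genes of the pathways that the medium's additives act on, and of TGF-beta signalling, were mixed. Of 15 tested Wnt target and inhibitor genes 2 were higher and 7 lower (median -0.92). Both higher genes, Sfrp2 and Sfrp1, encode secreted inhibitors, not targets. The secreted inhibitor Sfrp2 was the higher extreme, with 2936, 2198 and 1485 CPM in M plate, against 57.9, 38.7 and 65 CPM in strips (5.36 ± 1.13). The call of Sfrp1 (1.04 ± 0.36) was lost without any 1 library other than strips replicate 2 (edgeR adjusted p up to 0.121), which left 1 higher. Wif1, a secreted inhibitor that binds Wnt proteins, had 0.0573, 0 and 0.0157 CPM in M plate, against 10.9, 12.5 and 13.8 CPM in strips. The inhibitor Dkk2 fell by 1.68 and the target Sp5 by 3.28. The targets Nkd1 and Znrf3 fell by 1.47 and 0.92, and Axin2 was not called (0.54, edgeR adjusted p = 0.3). BMP target and antagonist genes gave 6 higher and 2 lower of 17 (median 0.34), beside 26.5% and 28.4% of all genes. Id3, a direct BMP target, had 282, 242 and 265 CPM in M plate, against 79.9, 59.3 and 77.6 CPM in strips (1.86 ± 0.38). The mouse gene of Noggin (Nog), the protein added to the medium, had 13.3, 11.1 and 9.89 CPM in M plate, against 47.5, 51.7 and 58.8 CPM in strips (-2.21 ± 0.61). Of 20 YAP targets 10 were higher and 3 lower (median 0.77), with Ccn2 at 351, 323 and 439 CPM in M plate, against 63.9, 67.2 and 66.1 CPM in strips (2.50 ± 0.35). TGF-beta genes gave 8 higher and 1 lower of 13 (median 1.19). The ligand Tgfb1 rose by 2.53 ± 0.27 and the secreted target Tgfbi fell by 2.15.

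Large rises were also seen outside the lists. The chemokine Ccl8 had 78.2, 53.6 and 70.6 CPM in M plate, against 0.11, 0.0417 and 0.0348 CPM in strips (10.16 ± 2.03). Ackr2, a chemokine scavenger of lymphatic endothelium, had 110, 165 and 82.8 CPM in M plate, against 0.11, 0.375 and 0.348 CPM in strips (8.71 ± 0.84). In 11 of the 12 largest falls strips replicate 2, the library richest in epithelium, was the highest. Fabp2, the intestinal fatty acid binding protein, was among them. It had no count in M plate and 18.3, 151 and 11.9 CPM in strips, at least 1667-fold lower over the floor of 3 counts. Without strips replicate 2 that bound was 633-fold, and without strips replicate 3 it was 3266-fold. Epcam, an adhesion molecule of epithelium, had 0.172, 0.127 and 0.44 CPM in M plate, against 13.4, 64.2 and 12.1 CPM in strips. Its log2 fold change was -6.82 ± 0.89, and ran from -7.62 to -5.64 as single libraries were left out, and M plate replicate 3 and strips replicate 2 each moved the fold by over 1.5 times. The haemoglobin gene Hba-a1 had no count in M plate and 30.5, 11.5 and 5.24 CPM in strips, at least 577-fold lower and highest in strips replicate 1. That bound was 304-fold without strips replicate 1 and 1056-fold without strips replicate 3.

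**Figure D4:**
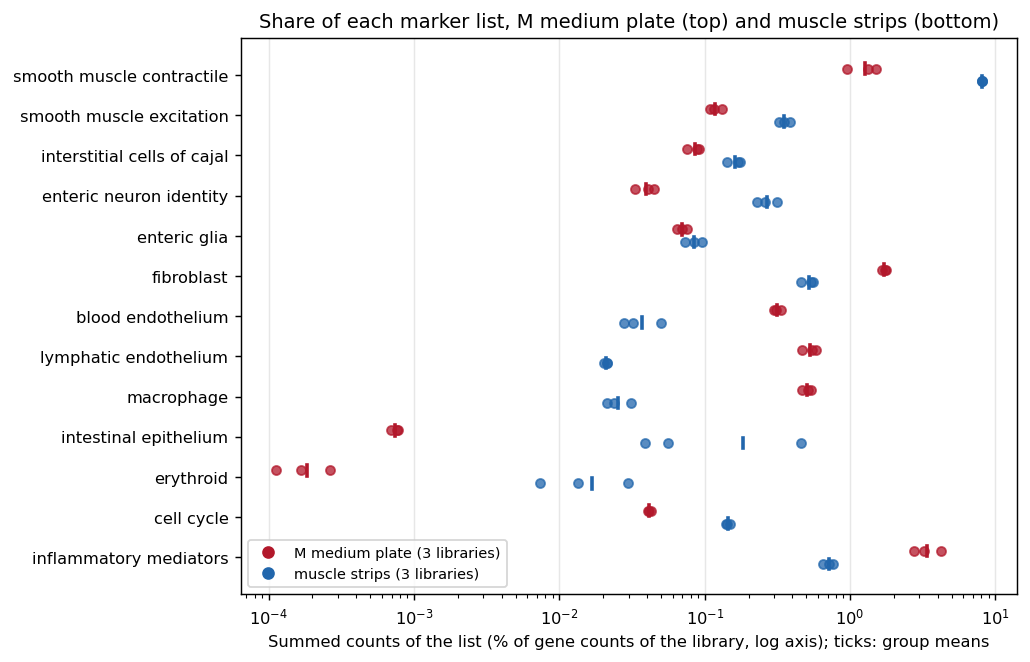
Summed counts of 13 gene lists as a percent of each library's gene counts (log axis), for 3 M medium plate libraries (red, upper) and 3 muscle strip libraries (blue, lower) in each row, with ticks at the means. Contractile genes hold 0.957% to 1.51% in M plate and 8.03% to 8.06% in strips, lymphatic and macrophage genes lie higher in M plate, and glial genes overlap.

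The other cultures of the study give a frame for these shares, as values without a test of the difference. Contractile genes summed to 1.51%, 0.957% and 1.33% in M plate, to 2.8%, 1.16% and 2.08% in M medium on the scaffold and to 1.76%, 1.41% and 2.41% in serum medium on plates, all under the 8.03% of the lowest strip. Lymphatic genes were at 0.465% to 0.581% in M plate, at 0.0432% to 0.256% on the scaffold and at 0.0111% to 0.0582% in serum medium. Macrophage genes did not follow that order, at 0.465% to 0.537% in M plate, 0.196% to 0.443% on the scaffold and 0.242% to 2.18% in serum medium. Inflammatory mediators were at 2.74% to 4.2% in M plate, 2.32% to 4.78% on the scaffold and 0.785% to 1.05% in serum medium.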

How the data were processed

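RNA-seq libraries from 12 mouse samples were deposited by the authors as raw counts for each Ensembl gene, with 5 summary entries that entered neither library sizes nor tests. The submitters' processing notes name STAR 2.6.0 and the build GRCm38 (mm10), and a TruSeq RNA v2 kit is named per the labels. The counting program, annotation, strand setting and read layout were not given in the sources used here, so reads of overlapping or near-identical genes may be shared between them. The design text speaks of technical replicates, but the table has 1 column a sample, and how they were joined is not stated.

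Of 52550 genes, 52403 were matched by identifier to GENCODE M21. Counts were fitted with edgeR 4.0.16 (R 4.3.3) on all 12 libraries by group, with TMM factors and filterByExpr, which kept 17700 genes and left 8 residual degrees of freedom. P-values were adjusted over all of these by Benjamini-Hochberg. Depth was 21396485 to 76361847 gene counts a library, and floors of 3 counts cover counting error only. Replicates differed by more than sampling noise (chi-square per gene of 40.7 to 56.5). Alternatives were DESeq2 1.42.0, limma-voom 3.58.1, other scaling factors, no filter, only 6 libraries, the replicate number as a block, a test against a fold of 1.5 and leaving out each library. The code was tested on simulated data.

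The 42 gene lists, 681 genes in all, and the comparison were chosen with earlier results of these data known. Genes were named from the 12 largest log2 rises and falls without overlap and with a mean of 20 CPM or more in the higher group, up to 4 members of a list in its main direction and 2 in the other, a panel, and the 6 largest CPM differences each way. Defining markers come from a list fixed beside that rule. Cald1, Gap43, Cacna1c, Kcnma1, Prkg1, Srf, Cd3e, Vip, Penk and Cck were named outside the rule after their values were seen.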

Additional observations from a re-analysis of the deposited data

How the results depend on the processing

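Calls hold at group sizes of 3, so small changes are missed, and a call at this depth does not make a change large. Against a fold of 1.5, 2416 genes were higher and 3242 lower, and the integrin and laminin list kept 3 lower, cholesterol synthesis 2 higher, glycolysis and hypoxia 2 higher and immediate early genes 6 higher. With only the 6 libraries, 5842 genes were called higher and 5894 lower. The counts higher there were 10 for fibroblast, 15 for glycolysis and hypoxia and 14 for interferon genes. DESeq2 also gave 14 interferon genes higher. Upper quartile factors gave 3 cholesterol and 3 glycolysis genes higher, and library size alone gave 3 and 2. Leaving out single libraries gave 3747 to 4128 genes higher and 4422 to 4802 lower, 3 to 5 cholesterol genes, 2 to 3 glycolysis genes and 6 to 12 immediate early genes higher. Without the other cultures' libraries that stood apart, an alternative chosen after seeing the data, 13 glycolysis genes were higher. The cause was not tested. No direction of a named call reversed. Of 233 named genes that were called, 217 to 223 stayed called in each fit without a single library, and 23 were lost in at least 1 of them.

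The replicate numbers gave no sign of pairing. Same-numbered libraries deviated together with correlations of -0.034, -0.021 and 0.050, and differently numbered ones with -0.066 to 0.084. With 3 libraries a group these values cannot show whether the samples were paired. The replicate block in the fit of 12 libraries gave 4587 higher and 4931 lower, and 231 of the 233 named calls stayed. With the block in the 6 libraries 5633 were higher and 5631 lower, 232 named calls stayed, and the counts higher were 10 for fibroblast, 9 for cholesterol, 15 for glycolysis and 14 for interferon genes.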

Other observations

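Hox genes, which record position along the gut, were split, with 9 lower and 3 higher of 19 tested (median -0.27). Hoxa5 had 14.7, 14.6 and 15.5 CPM in M plate, against 121, 109 and 157 CPM in strips (-3.11 ± 0.30), and Hoxb5 fell by 3.07. Hoxd9 had 26.5, 33.1 and 36.1 CPM in M plate, against 0.383, 0.25 and 0.731 CPM in strips (6.01 ± 0.71). The labels do not name the part of the intestine used for each group. Several Hox genes overlap other annotated transcripts.

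Genes of the insulin-like growth factor system and imprinted genes gave 6 higher and 3 lower of 16 (median 0.30). The binding protein Igfbp3 had 2399, 2134 and 3007 CPM in M plate, against 30.2, 23.4 and 33.6 CPM in strips (6.43 ± 0.56), and the imprinted RNA H19 had 1944, 2497 and 2681 CPM in M plate, against 517, 325 and 534 CPM in strips (2.37 ± 0.28). Antioxidant genes were higher in 10 of 13 cases and lower in none, also in DESeq2, limma-voom and at an unadjusted p under 0.05 in edgeR (median 0.98). Haem oxygenase (Hmox1) had 132, 257 and 261 CPM in M plate, against 6.49, 6.05 and 5.64 CPM in strips (5.16 ± 0.75). Retinoid genes gave 4 higher and 5 lower of 14, near the 26.5% higher and 28.4% lower of all genes. The retinoic acid-degrading Cyp26a1 had 7.34, 4.49 and 5.17 CPM in M plate, against 0.63, 0.417 and 0.406 CPM in strips (3.55 ± 0.97). Aldh1a3, which makes retinoic acid, had 16.9, 18 and 19.6 CPM in M plate, against 78.7, 135 and 98.3 CPM in strips (-2.52 ± 0.65).

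Of 12 tested genes best known from skeletal and heart muscle 6 were lower and 1 higher in M plate. The creatine kinase Ckm had 9.26, 4.49 and 7.67 CPM in M plate, against 132, 170 and 138 CPM in strips (-4.36 ± 0.52), while the skeletal myosin Myh4 had no count in M plate and 1 in the strips. Another skeletal myosin, Myh1, was the gene called higher, at 8.85, 3.86 and 2.33 CPM in M plate, against 0.438, 0.709 and 0.51 CPM in strips (3.19 ± 0.85). Its value was 2.49 without M plate replicate 1.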
